A study of Bos taurus with 14 samples.

Results

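The miR-183/miR-96/miR-182 cluster is a group of 3 neighbouring miRNA genes. Its mature products bta-miR-183, bta-miR-96 and bta-miR-182 were followed in peripheral white blood cells (PWBC) of 14 heifers. The members were chosen by name, 3 of the 1030 mature miRNAs in the count table, of which 614 had at least 1 count in any heifer. In vertebrates these miRNAs are cut from a shared primary transcript and are best known from sensory cells, such as the hair cells of the inner ear and the photoreceptors of the retina. Resting lymphocytes hold little of them, and the cluster is induced when helper T lymphocytes are activated, where miR-182 represses the transcription factor FOXO1 and so allows clonal expansion.

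Blood was taken at weaning from Angus-Simmental crossbred heifers, and small RNA from the PWBC of each heifer was sequenced as 1 library. The fertile group (FH) comprised 7 heifers that later became pregnant to artificial insemination (AI), and the subfertile group (SFH) comprised 7 heifers that remained without pregnancy after AI and a season with bulls. Both groups went through the same breeding protocol. The comparison asked whether the members differed at weaning, before breeding, between heifers of different later fertility.

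The counts on mature miRNAs ranged from 1754971 to 5468341 per heifer in the FH group (median 3319368) and from 1831960 to 3958469 in the SFH group (median 2663375), and by an exact permutation test of the means the groups were not distinguishable in depth (two-sided p = 0.315). Values are given as TMM-normalized CPM, that is counts scaled to a common library size (CPM) with edgeR's trimmed mean of M-values. Each read stands for a whole mature miRNA, so no length enters the scale. Where a heifer had no count of a miRNA, up to 3 counts are still possible, and this limit corresponded to 0.570 to 1.69 TMM-normalized CPM across the 14 heifers. Intervals and limits are 95% exact (Clopper-Pearson) bounds or 3-count limits and cover counting error only, since reads were amplified by PCR and the methods describe no removal of copies.

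All 3 members were scarce in PWBC. Together they had 210 counts over the 14 heifers, 138 on bta-miR-182, 68 on bta-miR-183 and 4 on bta-miR-96. By total count 346 miRNAs were above bta-miR-182, 400 were above bta-miR-183 and 574 were above bta-miR-96. Pooled over all heifers, and scaled by library totals without TMM, the level was 3.21 CPM for bta-miR-182, 1.58 for bta-miR-183 and 0.0930 for bta-miR-96. In 7 heifers (4 FH and 3 SFH) no member had a count, in 5 heifers (3 FH and 2 SFH) a single member did, SFH heifer 32 had 2 members and SFH heifer 21 had all 3.

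**Figure D1:**
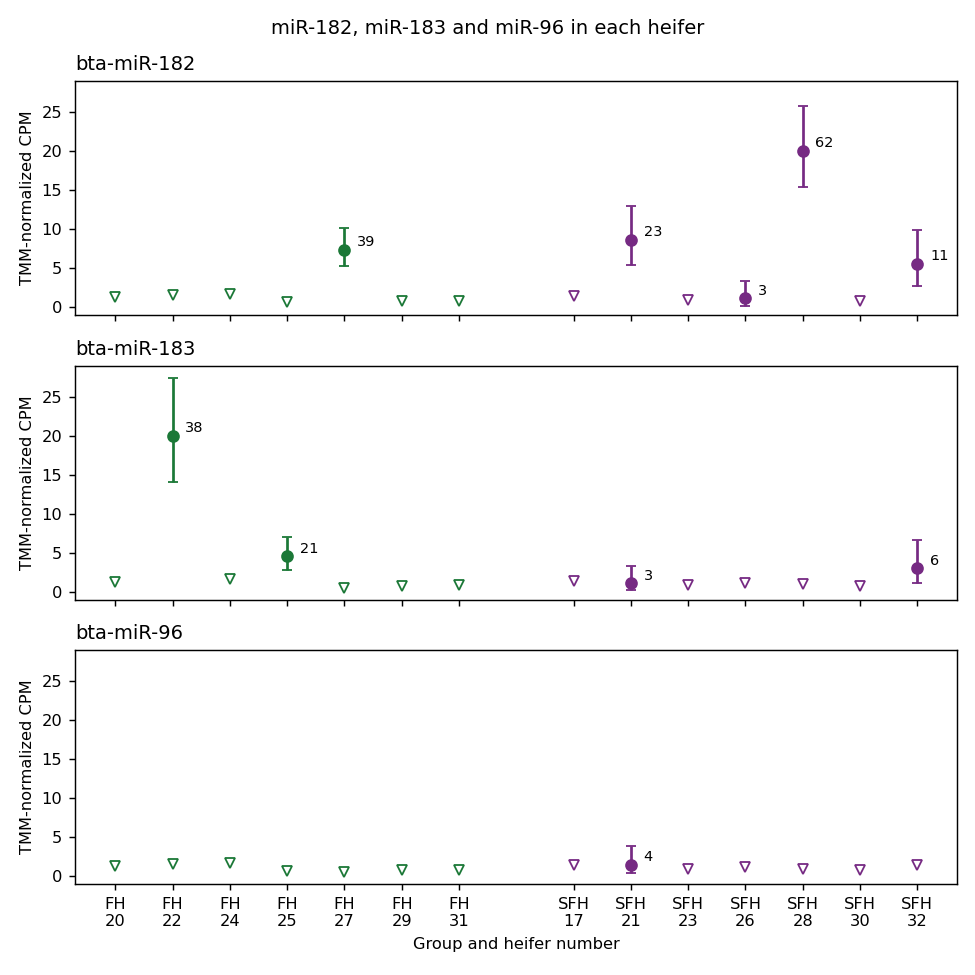
TMM-normalized CPM (vertical axis) of bta-miR-182, bta-miR-183 and bta-miR-96 in each of the 7 FH (green) and 7 SFH (purple) heifers. Filled points carry 95% exact counting intervals and the raw count, and open triangles mark the 3-count limit of heifers with a count of 0; bta-miR-182 reached 20.1 in SFH heifer 28, bta-miR-183 reached 20.0 in FH heifer 22, and bta-miR-96 had 4 counts in SFH heifer 21.

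Over both groups together the member with most counts was bta-miR-182, the miRNA of the cluster that acts on FOXO1 in activated T lymphocytes. This order held in SFH (99 counts against 9 for bta-miR-183), where SFH heifer 28 held 62 of the 99, and was the opposite in FH (39 against 59). FH heifer 27 held all 39, while FH heifer 22 held 38 of the 59 and FH heifer 25 the other 21. The order in FH therefore turns without FH heifer 22. In the SFH group bta-miR-182 ranged from 0 to 20.1 TMM-normalized CPM with a median of 1.16, and 4 of 7 heifers had a count. SFH heifer 28 had 62 counts (20.1 TMM-normalized CPM, 95% interval 15.4 to 25.8), SFH heifer 21 had 23 counts (8.63, interval 5.47 to 12.9), SFH heifer 32 had 11 counts (5.56, interval 2.78 to 9.96) and SFH heifer 26 had 3 counts (1.16, interval 0.239 to 3.39). In the FH group the median was 0, and FH heifer 27 alone had a count, with 39 counts or 7.41 TMM-normalized CPM (interval 5.27 to 10.1). The other 9 heifers, 6 FH and 3 SFH, were at 0. The groups overlapped, because FH heifer 27 lay above 5 of the 7 SFH heifers.

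The level of SFH heifer 28 was at least 11.9-fold above the 3-count limit of each heifer without a bta-miR-182 count, and this heifer held 44.9% of all bta-miR-182 counts. If the 138 counts were shared out in proportion to library size, each heifer would hold 5.78 to 17.1 of them, and every such share is above the limit of 3 counts. Among the 54 other miRNAs with totals within a factor of 1.5 (94 to 207 counts) the median number of heifers at 0 was 7, and 9 of the 54 had at least as many heifers at 0 as bta-miR-182.

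By group, bta-miR-182 averaged 1.06 ± 2.80 TMM-normalized CPM in the 7 FH heifers and 5.06 ± 7.43 in the 7 SFH heifers (mean ± SD). On the log2(TMM-normalized CPM + 0.5) scale the means differed by 1.56 (SFH minus FH). By this difference the groups were not distinguishable (exact permutation test over 7 and 7 heifers, two-sided p = 0.168). The difference was 1.01 without SFH heifer 28 and 2.48 with a pseudocount of 0.1. Detection in 1 of 7 FH and 4 of 7 SFH heifers gave p = 0.266 in Fisher's exact test (two-sided). In bulk PWBC, fewer cells of a type and less RNA per cell cannot be told apart.

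The miRNA bta-miR-183, which with the other members is needed for the maturation of sensory cells, had counts in 2 FH and 2 SFH heifers, and the median was 0 in both groups. FH heifer 22 had 38 counts (20.0 TMM-normalized CPM, 95% interval 14.1 to 27.4) and FH heifer 25 had 21 counts (4.58, interval 2.83 to 7.00). SFH heifer 32 had 6 counts (3.03, interval 1.11 to 6.61) and SFH heifer 21 had 3 counts (1.13, interval 0.232 to 3.29). The higher pair was therefore in FH, the lower pair in SFH, and the interval of FH heifer 25 overlapped both SFH intervals.

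FH heifer 22 held 55.9% of the bta-miR-183 counts and lay at least 11.9-fold above the 3-count limit of each of the 10 heifers at 0. An even share of the 68 counts by library size would be 2.85 to 8.43 counts per heifer, near the limit of 3 counts in the shallowest libraries. Zeros of this number were common in miRNAs of like total, where 43 of 70 others with 46 to 98 counts had at least 10 heifers at 0.

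By group, bta-miR-183 was at 3.51 ± 7.46 TMM-normalized CPM in FH heifers against 0.594 ± 1.15 in SFH heifers (mean ± SD, 7 each). The mean log2(TMM-normalized CPM + 0.5) fell by 0.60 from FH to SFH, and the groups were not distinguishable (exact permutation test, two-sided p = 0.584). Without FH heifer 22 the difference was 0.06 in the opposite direction (exact permutation p = 1). The number of heifers with a count was 2 of 7 in each group (Fisher's exact test, p = 1).

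The lowest member was bta-miR-96, whose seed variants cause hearing loss in humans and mice. Its 4 counts were all in SFH heifer 21 (1.50 TMM-normalized CPM, 95% interval 0.409 to 3.84), and the other 13 heifers were at 0. Over the FH group as a whole the limit of a zero was 0.131 TMM-normalized CPM, and the pooled SFH level was 0.205. The permutation test says nothing about the difference of 0.29 on the log2 scale, since with a single heifer above 0 every arrangement of the heifers gives a difference of the same size (exact permutation p = 1). Of the 25 other miRNAs with 3 to 6 counts, 15 were likewise at 0 in at least 13 heifers.

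The cluster was not tested in the fit across miRNAs, because 7 heifers with a CPM of 1 or more were required there and bta-miR-182, bta-miR-183 and bta-miR-96 had that CPM in 5, 4 and 1 heifers. Among the 341 miRNAs that passed, 13 (3.81%) passed the thresholds of the study (unadjusted p-value ≤0.05, log2 fold change of 0.5 or more in either direction) in edgeR's quasi-likelihood F-test, 5 higher and 8 lower in SFH. The balance of directions depended on the method, with 7 higher and 7 lower when libraries were scaled by totals only and 15 higher and 8 lower in limma-voom. After Benjamini-Hochberg adjustment edgeR gave 0 (0%), with 20 at an unadjusted p-value ≤0.05, while DESeq2 gave 2 and limma-voom 0.

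With the requirement on CPM lifted, all 3 members entered a fit of 614 miRNAs. edgeR's log2 fold change (SFH relative to FH) was 2.22 for bta-miR-182 (standard error 1.93, adjusted p = 0.625), −2.51 for bta-miR-183 (standard error 2.11, adjusted p = 0.604) and 2.63 for bta-miR-96 (standard error 1.19, adjusted p = 0.171). In this fit 1 of the 3 members, bta-miR-96, was past the same thresholds, as were 126 of the 614 miRNAs (20.5%; 81 higher and 45 lower in SFH), and after adjustment 0 miRNAs (0%) were past in edgeR, with 131 at an unadjusted p-value ≤0.05, and 2 in DESeq2. The call of bta-miR-96 was lost without FH heifer 25, 27 or 29, each at 0 for it (edgeR adjusted p = 0.232, 0.229 and 0.242). The unadjusted edgeR p-values, on which the call rests, were 0.0512, 0.0544 and 0.0520, just past the threshold, against 0.0336 with all heifers. The fitted value stayed about as large in these fits (2.57, 2.55 and 2.58). Without SFH heifer 21 bta-miR-96 could not be fitted. Sizes also depended on the tool. For bta-miR-182, bta-miR-183 and bta-miR-96 in this order, DESeq2 gave 2.24, −2.62 and 1.83 (adjusted p = 0.922, 0.922 and 0.964) and limma-voom gave 2.30, −0.58 and 0.59 (adjusted p = 0.688, 0.857 and 0.698). With log2 total count as a covariate edgeR gave 5.31, −3.31 and 2.62 (adjusted p = 0.303, 0.520 and 0.303). In that fit bta-miR-182 and bta-miR-96 had an unadjusted p-value ≤0.05. The edgeR value of bta-miR-96 is a fit of 4 counts in a single heifer against a group at 0, so its size depends on the prior count and is no bound. Without FH heifer 27 every FH heifer was at 0 for bta-miR-182 and the fitted value was 6.90 (edgeR adjusted p = 0.178, with an unadjusted p-value ≤0.05), which likewise depends on the prior count. Without SFH heifer 28 it was 1.204 (adjusted p = 0.905). The fitted value of bta-miR-183 was −0.42 without FH heifer 22 (adjusted p = 0.987) and −3.96 without SFH heifer 32 (adjusted p = 0.444).

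More than 1 member was counted in 2 of the 14 heifers. bta-miR-182 and bta-miR-183 were both present in 2 heifers, SFH 21 and SFH 32. bta-miR-182 was present without bta-miR-183 in 3 heifers (FH 27, SFH 26 and SFH 28), bta-miR-183 without bta-miR-182 in 2 heifers (FH 22 and FH 25), and both were at 0 in 7 (Fisher's exact test, p = 0.580). bta-miR-96 appeared where the other members did, in SFH heifer 21.

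Within a library the ratio of members needs no scaling, and it ran in opposite directions between heifers. In FH heifer 22 bta-miR-183 had 38 counts and bta-miR-182 had 0, a ratio of at least 12.7 against the 3-count limit, and in FH heifer 25 the ratio was at least 7.00. The reverse held in SFH heifer 28, where bta-miR-182 had 62 counts and bta-miR-183 had 0 (ratio at least 20.7), and in FH heifer 27, with 39 counts against 0 (at least 13.0). Each of these minimum ratios takes the higher count as observed and leaves out its own counting error. Where both were counted, bta-miR-182 had 7.67 times the counts of bta-miR-183 in SFH heifer 21 (95% interval 2.32 to 39.9) and 1.83 times its counts in SFH heifer 32 (interval 0.621 to 6.04), an interval that includes equality. These ratios are of read counts, and unequal ligation of the adapters to different miRNAs was not measured.

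In SFH heifer 21, the heifer with all 3 members, the counts were 23 for bta-miR-182, 4 for bta-miR-96 and 3 for bta-miR-183. The ratio of bta-miR-182 to bta-miR-96 was 5.75 (95% interval 1.96 to 22.9), whereas bta-miR-183 and bta-miR-96 were not distinguishable (0.750, interval 0.110 to 4.43).

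Between groups, the mean log2 ratio of bta-miR-182 to bta-miR-183 (0.5 added to each count) was −0.77 in FH and 1.91 in SFH. By this difference of 2.68 the groups were not distinguishable (exact permutation test, two-sided p = 0.175). Without FH heifer 27 the difference was 3.86 (exact permutation p = 0.0326). It was smaller without FH heifer 22 (1.76, exact permutation p = 0.343) or SFH heifer 28 (1.83, exact permutation p = 0.306). The ratio of bta-miR-182 to bta-miR-96 differed by 1.48 (exact permutation p = 0.290) and that of bta-miR-183 to bta-miR-96 by −1.19 (exact permutation p = 0.339). Single heifers moved these as well, the former to 0.72 without SFH heifer 28 and 2.38 without FH heifer 27, the latter to −0.43 without FH heifer 22 and −1.73 without SFH heifer 32, with exact permutation p-values from 0.0699 to 0.608. Both miRNAs of a ratio were at 0 in 7, 9 and 10 heifers in the same order, so that most ratios carry no count.

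Across the 14 heifers the levels of bta-miR-182 and bta-miR-183 had Pearson's r = −0.01 (permutation p = 0.964) and Spearman's rho = 0.08 (permutation p = 0.814), and r was 0.04 once the 2 heifers with the most extreme bta-miR-182 values were left out. Within FH r was −0.25 and within SFH 0.49 (exact permutation p = 1 and 0.310, n = 7 each). For bta-miR-182 and bta-miR-96 r was 0.41 (permutation p = 0.145), with rho = 0.44 (permutation p = 0.143), and this relation rests on SFH heifer 21. For bta-miR-183 and bta-miR-96 r was 0.13 (permutation p = 1) and rho 0.30 (permutation p = 0.285), again with the single heifer that had bta-miR-96 (r was 0.46 without the 2 heifers highest in bta-miR-183). These relations belong to a family of 18, in which the members were also set against the log2 total count and against bta-miR-150, bta-miR-155, bta-miR-223 and bta-miR-451. Over the 14 heifers the smallest permutation p of r in the family was 0.0531 (bta-miR-182 and bta-miR-150, r = −0.53), and after Benjamini-Hochberg adjustment over the 18 no p of r or rho was below 0.639. Within groups, 2 of 29 relations had an exact permutation p of r ≤0.05, both against bta-miR-223 in SFH. These were bta-miR-182 with r = −0.88 and rho = −0.82 (exact permutation p = 0.0179 and 0.0381), and bta-miR-183 with r = −0.78 and rho = −0.80 (exact permutation p = 0.0238 and 0.0476). By rho alone, bta-miR-183 and bta-miR-155 in SFH also had an exact permutation p of 0.0476 (rho = −0.80), with r = −0.66 (exact permutation p = 0.119). In FH the bta-miR-223 relations had r = −0.30 and 0.17 (exact permutation p = 0.714 and 0.762), the difference between groups was not tested, and no within-group p was below 0.345 for r or 0.460 for rho after adjustment over the 29. Against the log2 total count, r was 0.08 for bta-miR-182 (permutation p = 0.776; rho = 0.06, permutation p = 0.847) and −0.25 for bta-miR-183 (permutation p = 0.388; rho = −0.21, permutation p = 0.479). With 5, 4 and 1 heifers above 0, these coefficients describe which heifers had counts more than how levels varied.

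Of the 341 miRNAs tested, those with the pattern most like bta-miR-182 over the 14 heifers, by Pearson's r on the log2 scale and as a description without a test, were bta-miR-2285p (0.68), bta-let-7i (0.67), bta-miR-11991 (0.65), bta-miR-425-5p (0.64) and bta-miR-186 (0.64). The lowest r with bta-miR-182 were those of bta-miR-3432a (−0.80), bta-miR-1260b (−0.79) and bta-miR-769 (−0.68). For bta-miR-183 the highest were bta-miR-2483-3p (0.61), bta-miR-11986b (0.57), bta-miR-365-3p (0.56), bta-miR-148b (0.51) and bta-miR-11997 (0.49), and the lowest were bta-miR-10225a (−0.68), bta-miR-10167-3p (−0.66) and bta-miR-1388-5p (−0.58). Several of these rest on FH heifers 22 and 25, the heifers with most bta-miR-183, without which r was 0.02 for bta-miR-365-3p, −0.03 for bta-miR-10167-3p and −0.21 for bta-miR-1388-5p. The values of bta-miR-96 contrast SFH heifer 21 with the other 13 heifers, and on that footing bta-miR-151-5p (0.63), bta-miR-423-3p (0.62), bta-miR-1 (0.59), bta-miR-425-5p (0.59) and bta-miR-10a (0.58) were highest and bta-miR-107 (−0.63), bta-miR-342 (−0.58) and bta-miR-150 (−0.57) lowest. No member could rank in another member's list, because none was among the 341.

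**Figure D2:**
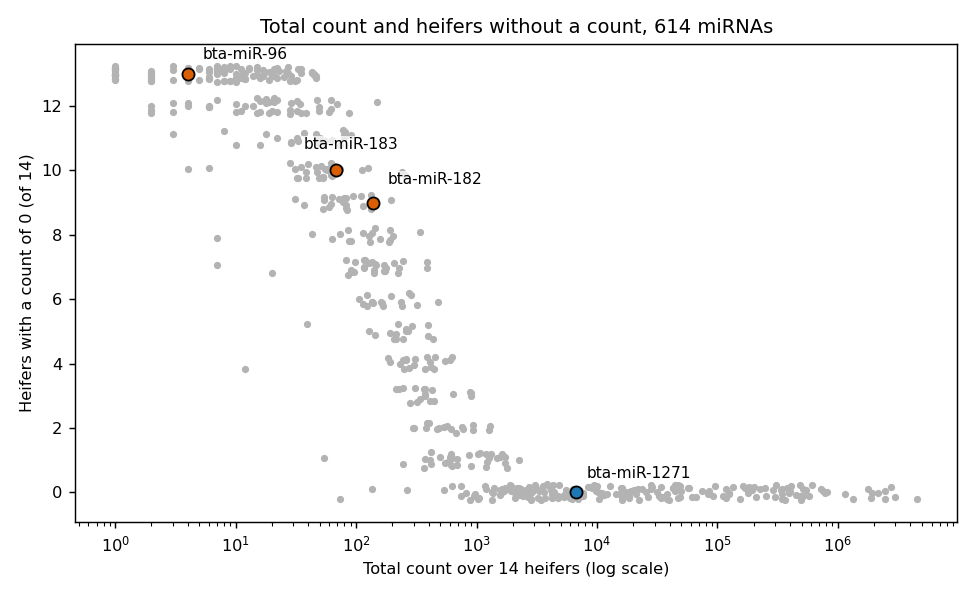
Number of heifers with a count of 0 (vertical axis, of 14, points shifted slightly to separate them) against the total count over the 14 heifers (horizontal axis, log scale) for 614 miRNAs. The members (orange) lie among the scarce miRNAs at 9, 10 and 13 heifers with a count of 0, and bta-miR-1271 (blue), of the seed family of bta-miR-96, had counts in every heifer.

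The seed family of bta-miR-96 was present in these cells through bta-miR-1271, which lies outside the cluster and was named after its values were seen. It had 6667 counts, 31.7 times the 210 of the 3 members together, and ranked 135 by total count. In FH it ranged from 105 to 212 TMM-normalized CPM (median 150), and in SFH from 81.1 to 213 (median 153). The means were 153 ± 32.9 for FH and 158 ± 44.5 for SFH (SD, 7 heifers each), and the fitted log2 fold change was 0.05 (SE 0.26, edgeR adjusted p = 0.977 over the 341 miRNAs, exact two-sided permutation p = 0.921). In SFH heifer 21 it was 213 TMM-normalized CPM beside 1.50 for bta-miR-96.

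The scarcity of the cluster was set beside lists of miRNAs known from blood cells and other tissues. The myeloid miRNAs, led by bta-miR-23a, summed to 43078 to 63962 TMM-normalized CPM. The lymphocyte miRNAs (bta-miR-150, bta-miR-342, bta-miR-181a and bta-miR-181b) were all present in each heifer, their sum was 59727 to 136719 TMM-normalized CPM, and bta-miR-150 was the highest at 34258 to 93402. Among 16 miRNAs known to follow lymphocyte activation or proliferation, 15 were tested, bta-miR-21-5p was highest, and bta-miR-155, which rises in activated lymphocytes, had 343717 counts against 138 for bta-miR-182. SFH heifer 21, with all 3 members of the cluster, had the lowest lymphocyte sum (59727) and the highest activation sum (135377) of the 14 heifers. The largest part of the activation sums was bta-miR-21-5p (27897 to 81492 TMM-normalized CPM across heifers). In bta-miR-155, by contrast, SFH heifer 21 lay below the mean of the other heifers on the log2 scale. There bta-miR-96, counted in this heifer alone, had r = −0.35 with bta-miR-155 over the 14 heifers (permutation p = 0.286). SFH heifer 26, which also had bta-miR-182, went the other way in both sums, with 132436 for lymphocyte miRNAs and the lowest activation sum of all (87468). The other heifers with bta-miR-182 had lymphocyte and activation sums of 67122 and 133714 (FH heifer 27) and 82023 and 131051 (SFH heifer 32). SFH heifer 28, highest in bta-miR-182, had a lymphocyte sum of 90518 and an activation sum of 112847, and FH heifer 22, highest in bta-miR-183, had 97813 and 101505, while FH heifer 25 had 90957 and 97194. The part of cell composition or activation in the detection of the members was not tested.

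None of the list miRNAs that were tested was past the thresholds in edgeR (0 of 4 lymphocyte, 0 of 15 activation, 0 of 4 myeloid, 0 of 2 erythroid, 0 of 2 platelet and endothelial, 0 of 2 epithelial and 0 of 3 neural and retinal). Of these 32 miRNAs edgeR gave 2 an unadjusted p-value ≤0.05 (bta-miR-17-5p and bta-miR-24-3p), DESeq2 had 0 and limma-voom had 1 past both thresholds (bta-miR-132), and after adjustment each of these tools had 0. Over all 341 miRNAs 13 (3.81%) were past the thresholds in edgeR, 16 in DESeq2 and 23 in limma-voom, so counts of 0 or 1 in lists of this size set none of them apart. The median log2 fold changes (SFH relative to FH) were 0.12, 0.10, 0.15, 0.34, −0.91, −0.19 and −0.36 in that order, beside 0.06 over all 341 (0.04 with RLE size factors and 0.12 with library totals only).

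The cluster is also expressed in epithelia, and 7 of 9 epithelial miRNAs looked for were in the table. Their sum was 1185 to 4840 TMM-normalized CPM, nearly all of it bta-miR-375 (1041 to 4677), and bta-miR-200c was at 54.8 to 257 in every heifer. The defining miRNAs otherwise were at or near 0, with 32 counts on bta-miR-200b, 19 on bta-miR-141, 3 on bta-miR-205, 1 on bta-miR-200a and 0 on bta-miR-429. Of the 5 heifers with bta-miR-182, FH heifer 27 had 18 counts of bta-miR-200b, SFH heifer 21 had 11 and SFH heifer 26 had 1, while SFH heifers 28 and 32 had 0. FH heifer 29, which had no member of the cluster, had 2 counts of bta-miR-200b. The 3 counts of bta-miR-205 were all in SFH heifer 28, the count of bta-miR-200a was in SFH heifer 21, and bta-miR-141 had 13 counts in FH heifer 27 and 6 in FH heifer 24, which likewise had no member. The epithelial sum was 2433 in FH heifer 27, 4230 in SFH heifer 21, 2378 in SFH heifer 26, 1959 in SFH heifer 28 and 2181 in SFH heifer 32, all inside the range of the other heifers. For bta-miR-183 it was 4840 in FH heifer 22, the highest of all, and 3206 in FH heifer 25. The part of epithelial RNA in these counts was not tested.

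Because the cluster is abundant in photoreceptors, 5 neural and retinal miRNAs were read beside it. Of these, bta-miR-204 was highest (277 to 1356 TMM-normalized CPM in the 14 heifers), and bta-miR-9-5p (6294 counts) and bta-miR-211 (5312 counts) were also present in every heifer, whereas bta-miR-124a and bta-miR-124b had 20 counts each, in a single heifer. The sum of the list was 421 to 2012 TMM-normalized CPM and was highest in FH heifer 25, which had bta-miR-183. The other heifers with a member had 773 (SFH heifer 21) to 912 (FH heifer 27), inside the range of the heifers without one (421 to 1237). The part of neural or retinal RNA in the counts of the members was not tested.

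The precursor genes of all 3 members were found by name in RefSeq's annotation of ARS-UCD2.0, a later assembly than the ARS-UCD1.2 used for the counts, so only their order is given. It reads *NRF1*, *MIR182*, *MIR96*, *MIR183*, *LOC132345191* and *UBE2H*, with 0 genes between the 3 precursors. The annotated hairpins are 111 bases long for *MIR182*, 103 for *MIR96* and 70 for *MIR183*. The middle gene of the cluster had the lowest count (4), and the outer genes had 138 and 68. Each member has 1 line in the count table, and reads were therefore not divided between precursor copies.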

How the data were processed

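The authors trimmed adapters and 4 bases from each read end, aligned the reads with miRDeep2 to ARS-UCD1.2 and to miRBase 22.1, and deposited the raw count of each mature miRNA per precursor and heifer. They also deposited CPM for 341 retained miRNAs, a table in which none of the members is listed, so the counts were used throughout. Of 1207 lines, 177 repeat a mature miRNA, and the line with the highest total was kept. The fit used edgeR 4.0.16 in R 4.3.3 (quasi-likelihood F-test, TMM, group as the only term). It was tested on simulated data. Since the members did not reach its CPM filter, they were compared by exact two-sided permutation over all 3432 arrangements, with Fisher's exact test for detection (added after seeing the data). Alternatives were other scalings, filters and pseudocounts, DESeq2 1.42.0, limma 3.58.1, a depth covariate and each heifer left out. Correlations used 100000 resamples (Python 3.11.15, scipy 1.17.1).

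The members and lists were chosen with earlier results of these data known. Named miRNAs are the members, for each member the 5 highest and 3 lowest correlated miRNAs, and of each list the most abundant and any past the thresholds. Others were named after their values were seen. Mature sequences were not used here, so seed families are given from general knowledge.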

Additional observations from a re-analysis of the deposited data

Results flagged for a closer look

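In FH heifer 27 bta-miR-182 was at 7.41 TMM-normalized CPM (39 counts), while the other 6 FH heifers were at 0. In SFH heifer 21 bta-miR-96 was at 1.50 TMM-normalized CPM (4 counts), while the other 6 SFH heifers were at 0. With 6 of 7 values at 0, any count in the seventh heifer stands apart from its group by the gap measure used (Dixon's), so neither mark says how large the count is. The value of bta-miR-96 is also no higher than the 3-count limit of SFH heifer 32 (1.52 TMM-normalized CPM), so it does not stand apart beyond counting error. Values of members were examined in 5 groups with at least 1 count, and chance marks about 1 in 20 groups in normally distributed values, which counts with mostly zeros are not. FH heifer 27 had the deepest library of the 14 (5468341 counts). SFH heifer 21 had 2663375 counts, the median of its group, and the largest number of miRNAs detected (425). The part of depth in either value was not tested.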

How the results depend on the processing

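The group difference of bta-miR-182 kept its direction in all 25 alternatives and passed an unadjusted p of 0.05 in 1, edgeR without the CPM filter and with log2 total count as a covariate (5.31, edgeR adjusted p = 0.303; adjusted p 0.625 without the covariate). Leaving out 1 heifer gave 1.01 to 2.13 by permutation (the unfiltered edgeR fit without FH heifer 27, outside these 25, passed too, at 6.90), and a pseudocount of 0.1 gave 2.48. That of bta-miR-183 was reversed in 1 of 25 (0.0570 without FH heifer 22; range −0.99 to 0.0570 with 1 heifer left out). That of bta-miR-96 passed it in edgeR without the filter (2.63, adjusted p = 0.171) and with the covariate added (2.62, adjusted p = 0.303), was 0 without SFH heifer 21 and 0.57 with a pseudocount of 0.1. Lifting the filter together with another tool or a covariate was chosen after seeing the data. The 13 miRNAs past the thresholds became 23 with limma-voom, 126 without the filter, 20 with every precursor entry, 25 with DESeq2 without the filter, 36 with limma-voom without the filter, 89 with the covariate without the filter, and 11 to 21 with 1 heifer left out (21 without FH heifer 24, 20 without FH heifer 27). The log2 ratio of bta-miR-182 to bta-miR-183 was 1.76 to 3.86 with 1 heifer left out. The correlation of bta-miR-182 and bta-miR-183 changed sign in 5 of 16 alternatives (0.0671 on residuals, −0.13 to 0.20 with 1 heifer left out). The cause was not tested. Tests on deposited CPM, with filtered tools, or on ratios without a pseudocount were not run for the members, which those leave out or leave in 2 SFH heifers. At this depth a count of 0 leaves a level of up to 0.570 to 1.69 TMM-normalized CPM possible, depending on the heifer, so lower levels could be missed.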

Other observations

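Unequal counts of neighbouring miRNA genes were also seen outside the miR-183/miR-96/miR-182 cluster. The erythroid miRNAs bta-miR-451 and bta-miR-144, which share a primary transcript, had 83879 counts (in every heifer) and 0 counts. The epithelial miRNAs bta-miR-200c and bta-miR-141, which also share a transcript, had 7597 counts (in every heifer) and 19 counts (FH heifer 24 with 6 and FH heifer 27 with 13). These pairs were named after their values were seen, and no test was made.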
